A study of Mus musculus with 12 samples.

Results

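The genes described here encode the proteins of the spliceosomal small nuclear ribonucleoproteins (snRNPs) and the LSm proteins. They are the rows of the count table whose symbol starts with Snrp, Snrnp, Sf3a, Sf3b, Prpf, Lsm or U2af. This rule gave 58 of the 24062 gene symbols. It uses names only and no measured value. By their known place in the spliceosome, the 58 fell into 8 Sm proteins, 13 LSm proteins, 6 proteins of or next to the U1 snRNP, 14 of the U2 snRNP and its recruiting factor U2AF, 11 of the U4/U6.U5 tri-snRNP and its activation, 3 of the minor U11/U12 snRNP and 2 that act at the catalytic stage. The remaining symbol, Lsmem1, shares only the prefix and is not an LSm protein.

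Cortex RNA of 9-month-old mice was sequenced from 4 groups with 3 mice and 3 libraries each. WT mice carried neither allele. PS19 mice carried a transgene for human 1N4R tau with the P301S mutation, driven by the Prnp promoter, on 2 intact copies of Tia1, the gene of an RNA-binding stress granule protein. Tia1+/- mice carried 1 null allele of Tia1 (Tia1tm1Andp) and no transgene, and P301S Tia1+/- mice carried both. The PS19 line has a mixed B6;C3 background and the Tia1 line was bred to C57BL/6J. The paper states that the lines were crossed and their offspring interbred. By its account, the P301S mice with and without the Tia1 null allele were littermates of the same background. Each library is 1 mouse, and bulk cortex cannot tell fewer cells of a type from less RNA per cell. For the 6 libraries with the Tia1 null allele, the title and the genotype entry disagree on which carried P301S tau, and the groups used here are those of the titles. Were the entries right, the values of these groups against WT would be exchanged, and P301S Tia1+/- against Tia1+/- would change sign. P301S Tia1+/- against PS19 and the interaction of the 2 genotypes would also take other values.

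In splicing, the U1 snRNP reads the 5′ splice site and the U2 snRNP, guided by U2AF, reads the branch point and the 3′ splice site. The U4/U6.U5 tri-snRNP then joins and is rearranged into the active enzyme. The Sm proteins form a ring around the U1, U2, U4 and U5 RNAs, and an LSm ring holds the U6 RNA. A related LSm ring in the cytoplasm takes part in mRNA decay.

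Several features of the libraries moved with the groups and touch every result below. Tia1 had 75.4 to 93.8 CPM (counts scaled to a common library size with TMM normalization) in WT, 70.8 to 77.9 in PS19, 61.4 to 79.8 in Tia1+/- and 72.6 to 77.8 in P301S Tia1+/- libraries, so Tia1 counts did not separate the labels. Xist had 3304 to 5693 counts in the 6 Tia1+/- and P301S Tia1+/- libraries and 0 to 13 in the other 6, and Ddx3y, on chromosome Y, had 0 to 2 and 1605 to 2296. Comparisons of either Tia1+/- group with WT or PS19 therefore also compare these sex-linked patterns, and the sources cannot be told apart. The sex-linked limit does not touch PS19 against WT, but other markers moved with that comparison. The 4 microglia markers summed to 143 to 167 CPM in WT, 188 to 241 in PS19, 154 to 225 in Tia1+/- and 185 to 192 in P301S Tia1+/- libraries, and in 4 of the 4 every PS19 library lay above every WT library. The 4 choroid plexus markers summed to 2.28 to 5.76 CPM in WT, 9.27 to 45.2 in PS19, 6.83 to 18.5 in Tia1+/- and 1.57 to 4.64 in P301S Tia1+/-. Rn45s, a ribosomal RNA precursor, had 28360 CPM in PS19 replicate 2, 9883 to 10378 in WT replicate 3, Tia1+/- replicate 1 and Tia1+/- replicate 3, and 1209 to 2355 in the rest. The 10 olfactory bulb markers summed to 33.2, 137 and 976 CPM in the WT libraries, 4.78 to 12.2 in PS19, 5.72 to 119 in Tia1+/- and 591 to 736 in P301S Tia1+/-. The striatal markers summed to 587 CPM in Tia1+/- replicate 3 and to at most 99.8 in any other library. The 4 oligodendrocyte markers summed to 1517 to 2273 CPM in WT, 1914 to 3326 in PS19, 2617 to 3494 in Tia1+/- and 1984 to 2230 in P301S Tia1+/- libraries. Total counts were 11978962 to 13587922 in WT, 13058003 to 19146484 in PS19, 14941823 to 15307751 in Tia1+/- and 15461503 to 16374226 in P301S Tia1+/- libraries. The part of tissue, cell types, ribosomal RNA, depth or sex-linked pattern in the snRNP results was not tested beyond the values given beside them.

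Most snRNP and LSm transcripts were somewhat lower in each of the 3 other groups than in WT. The log2 fold change was negative for 48 of the 58 genes in PS19 against WT, 46 in Tia1+/- against WT and 42 in P301S Tia1+/- against WT, with medians of −0.15, −0.15 and −0.11. Over all 15440 genes tested, the share with a negative value was 51%, 49.3% and 46.6% and the medians were −0.0066, 0.0057 and 0.024. These 3 comparisons share the WT libraries, so their values are given side by side and are not independent. WT had the highest group mean in 36 of the 58 genes (62.1%), and in 26.1% of all genes tested. P301S Tia1+/- had the highest mean in 15 of the 58 (25.9%, against 30.9% of all genes), among them Snrpb, Lsm10, Prpf31 and Snrnp200.

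**Figure D1:**
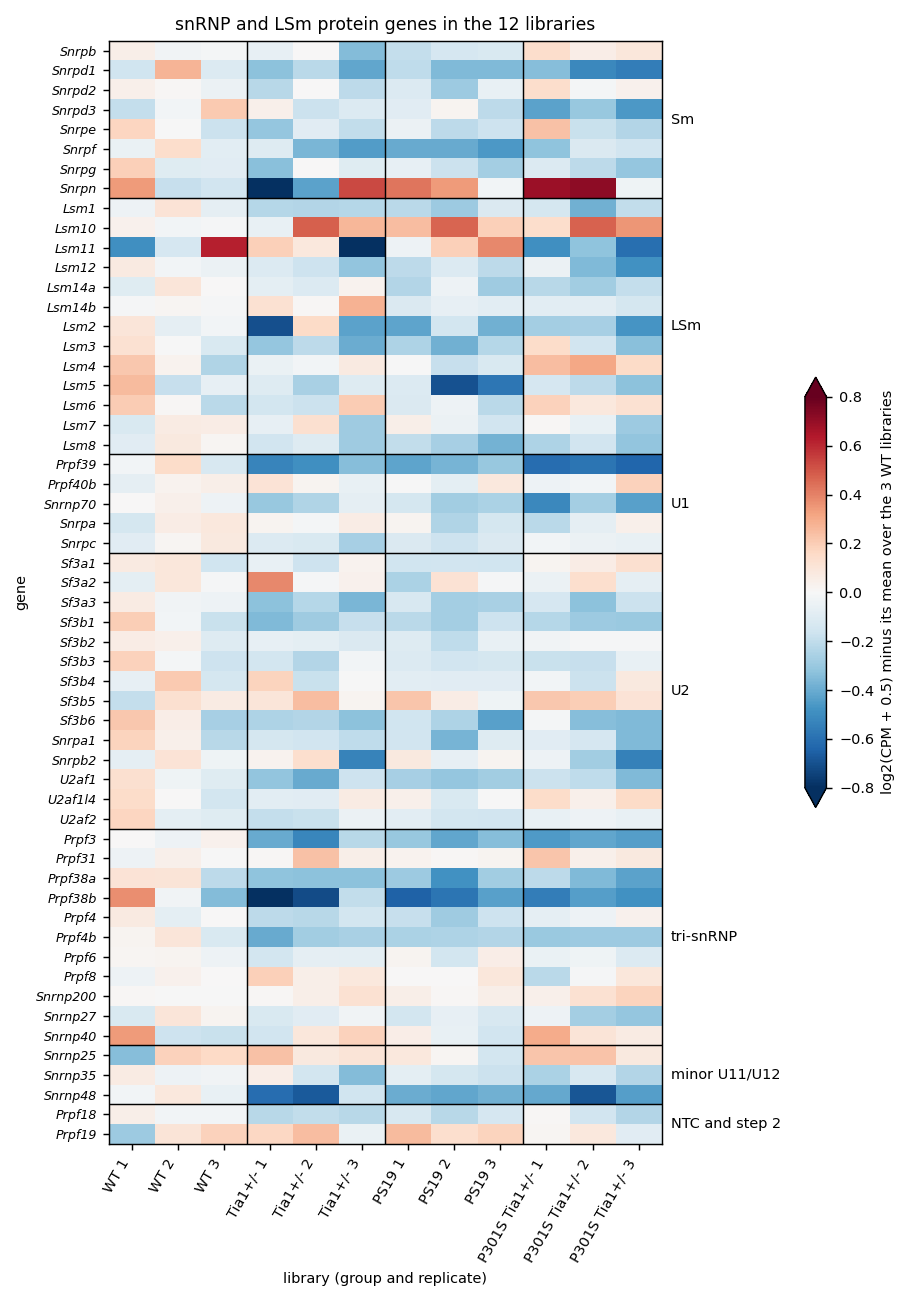
Level of the snRNP and LSm protein genes (rows, by class, 1 gene not shown) in the 12 libraries (columns), as log2(CPM + 0.5) minus the mean of the 3 WT libraries; colours saturate at 0.8 in either direction. Blue, lower than the WT mean, prevails in the 9 libraries that are not WT, and more genes are blue in WT replicate 3 than in the other WT libraries.

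The difference was small in each library. The median deviation of the 58 genes from their WT mean, on the log2 scale, was 0.038, 0.019 and −0.048 in the WT libraries. It was −0.12, −0.15 and −0.15 in PS19, −0.14, −0.14 and −0.11 in Tia1+/- and −0.058, −0.13 and −0.16 in P301S Tia1+/- libraries. All 9 of the latter lay below the 3 WT libraries, with P301S Tia1+/- replicate 1 the closest to them. The same median over all genes tested stayed between −0.0081 and 0.050 in the 12 libraries.

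Few single genes passed the test after adjustment over all genes. With edgeR's quasi-likelihood test at an adjusted p under 0.05, 0 of the 58 were called in PS19 against WT (0% of all genes), 1 in Tia1+/- against WT (0.712%) and 2 in P301S Tia1+/- against WT (1.31%). DESeq2 called 2, 5 and 9, where it called 2.88%, 6.33% and 6.44% of all genes. At an unadjusted p under 0.05, 17, 15 and 17 of the 58 were lower than WT and 0 were higher in any of the 3, where the background of all genes was 9.73%, 10.5% and 9.46% lower and 6.56%, 8.63% and 8.57% higher. The number lower in PS19 fell to 11 without WT replicate 1 (5.41% of all genes). It fell to 10 without PS19 replicate 2 (5.30%) or PS19 replicate 3 (7.52%), and to 5 when the olfactory bulb level was a covariate. That covariate gave 9 in Tia1+/- against WT and 18 in P301S Tia1+/- against WT, and in the same fit 11.5%, 13.6% and 11.96% of all genes were lower in PS19, Tia1+/- and P301S Tia1+/-. In 11 genes the level was lower than WT at an unadjusted p under 0.05 in all 3 comparisons, a pattern found in 2.86% of all genes. They were Snrpd1, Prpf39, Snrnp70, Sf3a3, Sf3b1, U2af1, Prpf3, Prpf38a, Prpf38b, Prpf4b and Snrnp48.

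In 13 of the 58 genes (22.4%), all 9 other libraries lay below the lowest WT library, and in 0 did all 9 lie above the highest. Over all genes these patterns held for 3.34% and 2.4%. The 13 were Snrpd1, Snrpf, Lsm1, Lsm12, Lsm8, Prpf39, Snrnp70, Sf3a3, U2af1, Prpf3, Prpf38a, Prpf4b and Snrnp48. Leaving out 1 library at a time can only keep or raise this number. It gave 13 to 19 of the 58 genes, against 3.43% to 7.81% of all genes. After each library's dependence on GC content and exonic length was removed, the pattern held for 7 of the 58, against 2.75% of all genes.

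**Figure D2:**
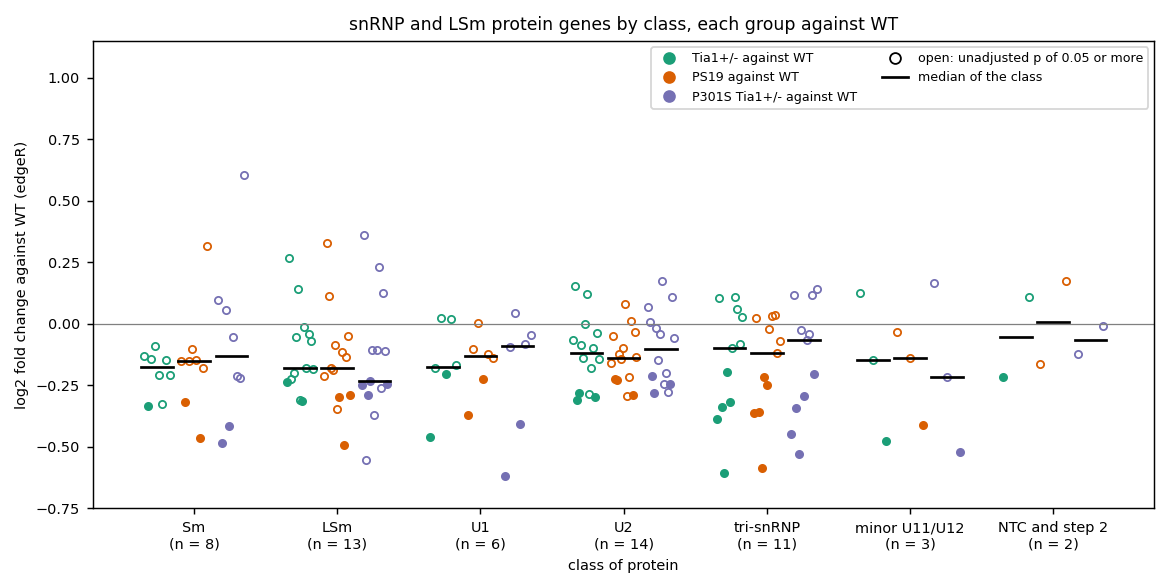
Log2 fold change of each snRNP and LSm protein gene against WT (vertical axis, edgeR) by class (horizontal axis) and by group (colour). Filled points have an unadjusted p under 0.05 and bars mark class medians; every filled point lies below 0, and the medians lie between −0.23 and 0.0069.

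In the U1 class, Prpf39, a U1-associated factor used in alternative splicing, was the gene with the smallest p of all 58 (chromosome 12, 65036333 to 65063386 on GRCm38). It had 64.2, 72.1 and 59.5 CPM in the WT libraries, 48.3, 50.2 and 52.7 in PS19, 44.9, 46.1 and 51.2 in Tia1+/- and 42.5, 43.2 and 41.6 in P301S Tia1+/-. Every other library lay below every WT library, and the P301S Tia1+/- libraries lay below all 9 of the rest. The log2 fold change against WT was −0.37 (standard error 0.0869, adjusted p = 0.158 from edgeR) in PS19, −0.46 (0.0870, 0.0446) in Tia1+/- and −0.62 (0.0872, 0.0145) in P301S Tia1+/-. So Prpf39 fell in both groups with the Tia1 null allele by edgeR, and its fall in PS19 passed the threshold with DESeq2 only (adjusted p = 0.0132). It was also the only one of the 58 called in a test of any difference among the 4 groups, at an adjusted p of 0.0440, where 0.395% of all genes were called. Against PS19, P301S Tia1+/- gave −0.25 (adjusted p = 0.175). The Tia1+/- call was lost without any 1 library other than WT replicate 3, and the P301S Tia1+/- call without WT replicate 2 or any 1 of the P301S Tia1+/- libraries. Over the alternatives, the adjusted p of edgeR and DESeq2 ran from 4.27e-04 to 0.337 in Tia1+/- and from 6.32e-08 to 0.155 in P301S Tia1+/-, and the direction never changed. Prpf39 shares 599 exonic bases with Fkbp3 on the opposite strand.

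Snrnp70, the U1-70K protein that binds the U1 RNA directly, was the most abundant U1 member (chromosome 7, 45376453 to 45395742; mean 13.0 CPM per kb of exon). It had 114, 117 and 111 CPM in the WT libraries, 103, 94.0 and 95.5 in PS19, 92.2, 96.3 and 108 in Tia1+/- and 79.6, 94.3 and 84.1 in P301S Tia1+/-. The WT libraries were the 3 highest. Its log2 fold change against WT was −0.22 in PS19 (edgeR, adjusted p = 0.252), −0.20 in Tia1+/- (0.236) and −0.41 in P301S Tia1+/- (0.0506), the last called by DESeq2 (adjusted p = 0.000555) and not by edgeR. Snrpc, the U1-C protein that steadies the pairing of U1 with the 5′ splice site, had 21.5, 23.3 and 24.3 CPM in the WT libraries, 21.1, 20.4 and 21.1 in PS19, 21.3, 21.1 and 19.0 in Tia1+/- and 22.6, 22.3 and 22.1 in P301S Tia1+/-. The PS19 and Tia1+/- libraries lay below all WT libraries for Snrpc and the P301S Tia1+/- libraries lay among them, and no comparison with WT had an unadjusted p under 0.05. Prpf40b, which bridges U1 to the branch point, had 30.9 to 33.6 CPM in WT, 30.8 to 34.6 in PS19, 31.2 to 35.2 in Tia1+/- and 31.6 to 37.1 in P301S Tia1+/- libraries, with overlap of the groups. Snrpa, the U1-A protein, had 22.5 to 26.4 CPM in WT, 21.0 to 25.2 in PS19, 24.6 to 25.9 in Tia1+/- and 21.3 to 25.6 in P301S Tia1+/- libraries, also with overlap. Beside these low values of Prpf39 and Snrnp70 in all 3 groups, the log2 fold changes of Snrpc, Prpf40b and Snrpa against WT lay between −0.17 and 0.045.

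**Figure D3:**
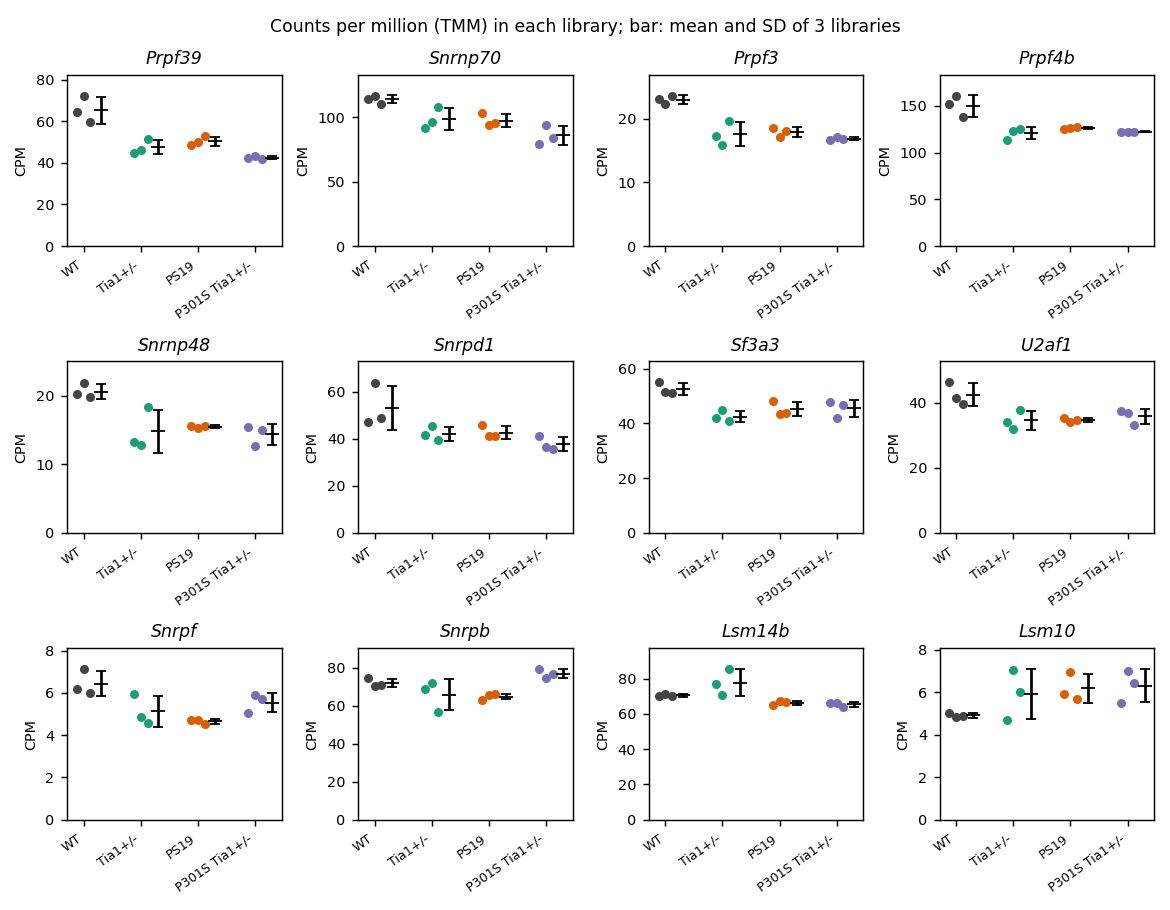
CPM (vertical axes, from 0) of 12 snRNP and LSm genes in each of the 3 libraries of the 4 groups (points), with mean and SD (bars). For Prpf39, Snrnp70, Prpf3, Prpf4b, Snrnp48, Snrpd1, Sf3a3, U2af1 and Snrpf the WT points are the 3 highest; for Snrpb the P301S Tia1+/- points are, and for Lsm10 WT has the lowest mean.

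In the tri-snRNP class, 5 of the 11 genes had an unadjusted p under 0.05 in each comparison with WT, all lower. Over all genes, 9.73%, 10.5% and 9.46% were lower at this threshold in PS19, Tia1+/- and P301S Tia1+/-. In the same order, 2, 1 and 2 of 8 Sm genes, 3, 2 and 4 of 13 LSm genes and 2, 2 and 2 of 6 U1 genes were. Prpf3, Prpf4b, Prpf38a and Prpf38b were among the 5 each time, with Prpf4 in PS19 and Tia1+/- and Snrnp27 in P301S Tia1+/-. Prpf3, a U4/U6 protein (chromosome 3, 95830124 to 95855885), had 23.1, 22.3 and 23.7 CPM in the WT libraries, 18.6, 17.1 and 18.1 in PS19, 17.3, 15.9 and 19.7 in Tia1+/- and 16.7, 17.2 and 16.8 in P301S Tia1+/-. The lowest WT library stood above the highest of the other 9. The log2 fold change against WT was −0.36 (standard error 0.0946, adjusted p = 0.168 from edgeR) in PS19, −0.38 (0.0947, 0.0800) in Tia1+/- and −0.45 (0.0947, 0.0491) in P301S Tia1+/-, so that it fell in P301S Tia1+/-. That call held without WT replicate 1 or Tia1+/- replicate 3 and was lost without any 1 of the other 10 libraries, with adjusted p values of 0.0316 to 0.182. Prpf4b, a kinase of the tri-snRNP, had 152, 160.1 and 138 CPM in the WT libraries, 125, 126 and 127 in PS19, 113, 124 and 125 in Tia1+/- and 122, 122 and 122 in P301S Tia1+/-. Its WT libraries were again the 3 highest, and the spread within PS19 and P301S Tia1+/- was small. Its log2 fold changes were −0.25, −0.32 and −0.30 against WT in PS19, Tia1+/- and P301S Tia1+/- (edgeR, adjusted p = 0.182, 0.0704 and 0.0682), and DESeq2 called all 3 (adjusted p = 0.0322, 0.00120 and 0.00127).

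Prpf38a and Prpf38b are factors of spliceosome activation, and Prpf4 is the U4/U6 partner of Prpf3. Prpf38b had 90.8, 68.6 and 54.8 CPM in the WT libraries, 44.4, 46.5 and 51.7 in PS19, 37.5, 42.3 and 60.8 in Tia1+/- and 47.5, 51.3 and 49.7 in P301S Tia1+/-. WT replicate 1 was far above the others, and WT replicate 3 overlapped Tia1+/- replicate 3. Prpf38a had 34.3 to 42.9 CPM in WT, 28.3 to 32.8 in PS19, 31.6 to 31.7 in Tia1+/- and 29.4 to 34.3 in P301S Tia1+/- libraries, and Prpf4 had 29.1 to 32.3 CPM in WT, 25.1 to 27.3 in PS19, 26.3 to 27.6 in Tia1+/- and 29.1 to 31.5 in P301S Tia1+/- libraries. Prpf4 differed from Prpf38a in the double genotype: it was at the WT level in P301S Tia1+/- (log2 fold change −0.027, against −0.22 in PS19 and −0.20 in Tia1+/-), and its interaction of P301S tau with Tia1+/- had the smallest p of the 58 (0.39, standard error 0.109, adjusted p = 0.0895 from edgeR and 0.0495 from DESeq2). For Prpf4, both the level in P301S Tia1+/- and the interaction rest on the groups of the titles. The large core proteins of U5 stayed close to WT. Prpf8, the scaffold of the catalytic centre, had 283 to 299 CPM in WT, 292 to 310.4 in PS19, 300.3 to 333 in Tia1+/- and 250.4 to 310.0 in P301S Tia1+/- libraries, and Snrnp200, the helicase that unwinds U4 from U6, had 244 to 247 CPM in WT, 248 to 253 in PS19, 247 to 268 in Tia1+/- and 252 to 278 in P301S Tia1+/- libraries. Their log2 fold changes against WT lay between −0.041 and 0.12, and no unadjusted p was under 0.05, although the Tia1+/- libraries lay just above WT for Prpf8 and the PS19 and P301S Tia1+/- libraries did for Snrnp200. Prpf31, which holds U4/U6 to U5, and Prpf6, which bridges them, had values between −0.10 and 0.12.

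The promoters of the 2 called genes and of Snrnp70 and U2af1 are shown because these genes were low in all 3 groups and because they share a short motif. RefSeq gives 300-base windows on GRCm38.p6, from 250 bases before a gene's start to 50 after it, for 47 of the 58 genes (58 windows). The first 280 bases are printed 5′ to 3′ on the gene's strand for Prpf39 (chr12:65036084-65036363, plus strand), Prpf3 (chr3:95855856-95856135, minus strand, the one of its windows at the GENCODE start), Snrnp70 (chr7:45395713-45395992, minus strand) and U2af1 (chr17:31658735-31659014, minus strand). Capitals mark matches to the core motif of NRF1, a regulator of genes that all cells use, of which 1 base is free. It was searched on both strands, where a match can cover the same bases.
Prpf39: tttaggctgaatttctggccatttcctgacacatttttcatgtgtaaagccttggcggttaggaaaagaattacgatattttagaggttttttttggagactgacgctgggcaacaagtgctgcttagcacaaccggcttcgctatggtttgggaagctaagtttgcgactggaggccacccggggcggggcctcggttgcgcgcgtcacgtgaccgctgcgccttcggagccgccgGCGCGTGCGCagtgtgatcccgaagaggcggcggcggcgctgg
Prpf3: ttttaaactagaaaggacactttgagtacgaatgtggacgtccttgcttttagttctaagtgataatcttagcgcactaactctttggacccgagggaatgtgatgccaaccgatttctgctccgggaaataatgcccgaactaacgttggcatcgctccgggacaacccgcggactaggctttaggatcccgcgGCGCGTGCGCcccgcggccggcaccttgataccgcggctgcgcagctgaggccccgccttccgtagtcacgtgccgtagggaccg
Snrnp70: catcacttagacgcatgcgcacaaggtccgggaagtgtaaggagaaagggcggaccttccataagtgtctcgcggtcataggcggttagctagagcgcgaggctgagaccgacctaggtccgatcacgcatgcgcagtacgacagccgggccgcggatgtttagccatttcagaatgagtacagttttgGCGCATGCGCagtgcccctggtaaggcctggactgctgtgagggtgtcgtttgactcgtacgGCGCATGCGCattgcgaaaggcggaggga
U2af1: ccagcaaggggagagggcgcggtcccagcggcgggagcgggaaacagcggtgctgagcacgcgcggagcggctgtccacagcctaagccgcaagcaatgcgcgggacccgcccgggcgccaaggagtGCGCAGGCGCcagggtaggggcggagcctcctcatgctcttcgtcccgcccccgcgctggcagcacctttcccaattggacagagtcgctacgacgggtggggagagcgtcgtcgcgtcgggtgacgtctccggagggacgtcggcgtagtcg
Prpf39, Prpf3 and U2af1 each had 1 match and Snrnp70 had 2. Over the 58 windows, 14 (24.1%) held the motif, against 4.60% of all 32851 windows in the table. The ETS core CCGGAAG was in 18 of the 58 (31.0%, against 8.86%). CCAAT was in 24 (41.4%, against 37.4%), TATAAA in 4 (6.90%, against 13.6%) and the core motif of YY1 in 1 (1.72%, against 0.986%). Of the 13 genes whose WT libraries were the 3 highest of the 12, 10 had a window. The NRF1 motif was in 4 of these, which are the 4 printed, and the ETS core in 3. By gene, the NRF1 motif was in 11 of the 47 with a window (23.4%, against 5.19% of all genes). The ETS core was in 17 of the 47 (36.2%, against 9.93%). The windows of all genes include those of genes with other promoter types, and a match is only a match of letters.

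In the U2 class, 3 of 14 genes had an unadjusted p under 0.05 against WT in each of the 3 groups. These were Sf3a3, Sf3b1 and U2af1, all lower. Over all genes, 9.73%, 10.5% and 9.46% were lower at this threshold in PS19, Tia1+/- and P301S Tia1+/-. U2af1, the small U2AF subunit that touches the AG of the 3′ splice site (chromosome 17, 31647081 to 31658892), had 46.3, 41.4 and 39.6 CPM in the WT libraries, 35.1, 34.1 and 34.8 in PS19, 33.9, 31.9 and 37.8 in Tia1+/- and 37.5, 36.8 and 33.0 in P301S Tia1+/-. The WT libraries were the 3 highest, and the other groups overlapped each other. Its log2 fold change against WT was −0.29 in PS19, −0.30 in Tia1+/- and −0.25 in P301S Tia1+/- (edgeR, adjusted p = 0.196, 0.124 and 0.187). Its relative U2af1l4 stayed level, with 20.0 to 24.7 CPM in WT, 20.4 to 22.9 in PS19, 20.9 to 23.3 in Tia1+/- and 22.9 to 24.7 in P301S Tia1+/- libraries and log2 fold changes of −0.032, −0.039 and 0.11. The ratio of U2af1 to U2af1l4 per kb was 1.21 ± 0.043 (SD, n = 3) in WT, 1.01 ± 0.045 in PS19, 1.01 ± 0.033 in Tia1+/- and 0.947 ± 0.088 in P301S Tia1+/-. All 9 other ratios (0.85 to 1.06) were below the lowest in WT (1.19). With 3 libraries against 3, an exact permutation test cannot give a 2-sided p below 0.10. Of the 50-base stretches of their transcripts, 21.7% for U2af1 and 42.4% for U2af1l4 also occur in other annotated genes. U2af1l4 shares most with Gm49396, which overlaps it on the same strand by 1086 exonic bases and is not a counted symbol. How reads of shared stretches were counted is not known.

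Sf3a3, which helps fit the U2 snRNP to the branch point, had 55.1, 51.5 and 51.2 CPM in the WT libraries, 48.0, 43.4 and 43.8 in PS19, 41.8, 44.8 and 40.8 in Tia1+/- and 47.8, 41.8 and 46.6 in P301S Tia1+/-. No library of another group reached the lowest WT library. The log2 fold change was −0.22 in PS19, −0.31 in Tia1+/- and −0.21 in P301S Tia1+/- (edgeR, adjusted p = 0.229, 0.0884 and 0.196), and DESeq2 called it in Tia1+/- (adjusted p = 0.0183). Sf3b1, the large branch point protein, had 440.3 to 569 CPM in WT, 412 to 443 in PS19, 389 to 437 in Tia1+/- and 404 to 425 in P301S Tia1+/- libraries. WT replicate 3 was overlapped by PS19 replicate 3 only, and the WT libraries spread widely. It was the second most abundant of the 58 per kb of exon (38.5 CPM per kb), after Prpf8 (39.8) and before Sf3b2 (36.1), Snrpb (35.4), Snrnp200 (32.6) and U2af2 (30.5). The remaining 11 U2 genes had log2 fold changes against WT between −0.29 and 0.17, none with an unadjusted p under 0.05. They include U2af2, the large U2AF subunit, at −0.13, −0.14 and −0.059, and Sf3b4 at −0.10, −0.0010 and −0.041 in PS19, Tia1+/- and P301S Tia1+/-.

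**Figure D4:**
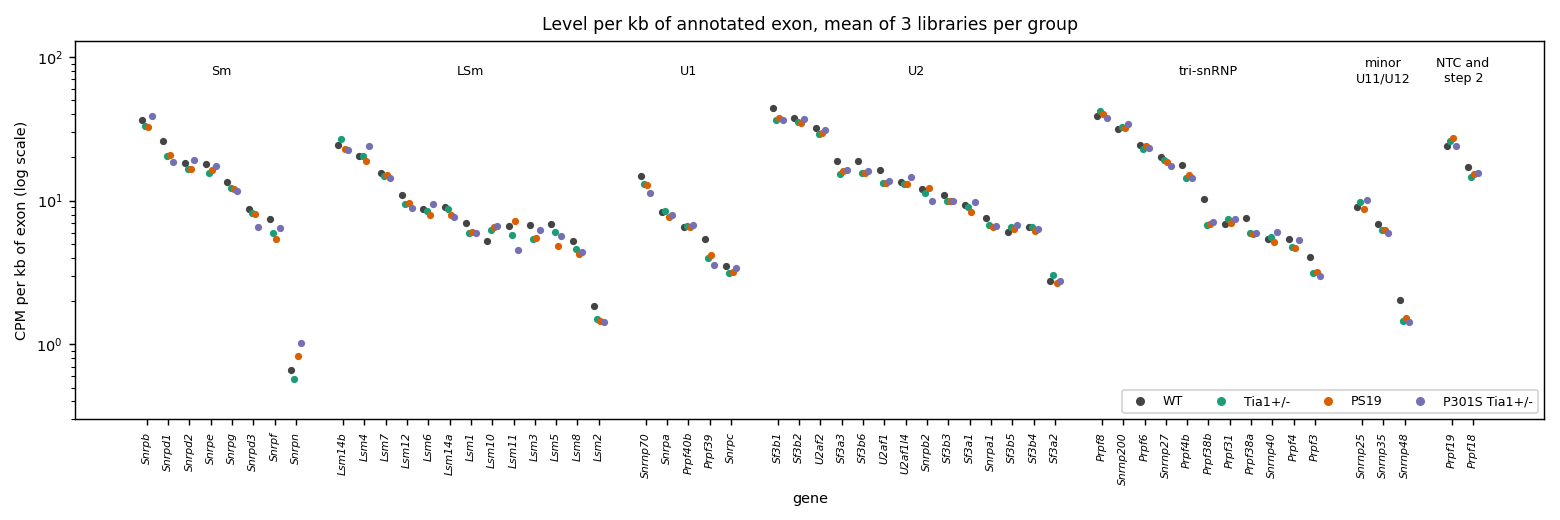
Mean level of the snRNP and LSm protein genes (1 not shown) in the 4 groups (colours, 3 libraries each), in CPM per kb of annotated exon on a log axis, ordered within each class. The mean over all 12 libraries was 0.773 for Snrpn, the lowest, and 39.8 for Prpf8, the highest, and the groups of a gene lie close together compared with the spread between genes.

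Among the 8 Sm genes, Snrpd1 and Snrpf had the lowest values in PS19 and Snrpd1 and Snrpd3 in P301S Tia1+/-. Snrpd1, a ring subunit, had 47.1, 63.7 and 48.7 CPM in the WT libraries, 45.7, 41.1 and 41.1 in PS19, 41.7, 45.3 and 39.4 in Tia1+/- and 41.4, 36.7 and 35.8 in P301S Tia1+/-. WT replicate 2 was the highest, and the other 2 WT libraries were still above all others. Its log2 fold change was −0.32 in PS19, −0.33 in Tia1+/- and −0.49 in P301S Tia1+/- (edgeR, adjusted p = 0.240, 0.168 and 0.0680), the last called by DESeq2 (adjusted p = 0.00757). Snrpf had 6.16, 7.11 and 6.01 CPM in the WT libraries, 4.73, 4.72 and 4.52 in PS19, 5.93, 4.86 and 4.57 in Tia1+/- and 5.03, 5.88 and 5.71 in P301S Tia1+/-. Its PS19 libraries were tight and the farthest from WT (log2 fold change −0.46, standard error 0.154, adjusted p = 0.210 from edgeR), while P301S Tia1+/- lay between PS19 and WT. Snrpf overlaps Ccdc38 on the opposite strand, and 89.5% of its 50-base stretches occur in another gene, so its count may hold reads of that gene.

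Snrpd3 had a different order of groups. It had 26.0, 29.4 and 34.5 CPM in the WT libraries, 27.9, 30.2 and 25.7 in PS19, 30.6, 26.3 and 27.6 in Tia1+/- and 22.0, 24.0 and 21.5 in P301S Tia1+/-. The P301S Tia1+/- libraries were below all 9 others, and PS19 and Tia1+/- overlapped WT. Its log2 fold change in P301S Tia1+/- was −0.41 against WT, −0.31 against PS19 and −0.33 against Tia1+/- (edgeR, adjusted p = 0.0947, 0.192 and 0.246). When olfactory bulb level was a covariate, the value against PS19 was 0.029. Snrpd3 shares 232 exonic bases with Gucd1 on the opposite strand. Snrpb, the most abundant Sm gene, went the other way and had 74.4, 70.5 and 71.1 CPM in the WT libraries, 63.1, 65.6 and 66.0 in PS19, 68.9, 72.2 and 56.6 in Tia1+/- and 79.5, 74.8 and 76.6 in P301S Tia1+/-. All P301S Tia1+/- libraries were above all others, at 0.25 against PS19 and 0.22 against Tia1+/- (edgeR, adjusted p = 0.183 and 0.269). Snrpn, the relative of Snrpb that neurons are known for, had only 8 to 44 counts per library, between 0.552 and 2.64 CPM. The table also lists Snurf, which shares exons with Snrpn, so this level may not be that of the gene. The ratio of Snrpb to Snrpn per kb was 57.1 ± 12.8 (SD, n = 3) in WT and 40.8 ± 9.93 in PS19. It was 83.2 ± 54.5 in Tia1+/- and 41.9 ± 16.7 in P301S Tia1+/-, with overlap of all groups. Snrpd2, Snrpe and Snrpg lay between −0.22 and 0.055 against WT.

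The LSm genes had a median log2 fold change against WT of −0.23 in P301S Tia1+/- and of −0.18 in both PS19 and Tia1+/-. Lsm8, which defines the nuclear U6 ring, had 20.6, 23.2 and 22.2 CPM in the WT libraries, 19.1, 18.2 and 16.7 in PS19, 19.7, 20.4 and 18.0 in Tia1+/- and 18.4, 19.7 and 17.5 in P301S Tia1+/-. Lsm1, which takes its place in the cytoplasmic decay ring, had 21.1, 23.5 and 20.6 CPM in the WT libraries, 18.7, 17.7 and 20.0 in PS19, 18.5, 18.4 and 18.4 in Tia1+/- and 19.6, 16.5 and 18.9 in P301S Tia1+/-. For both, the WT libraries were the 3 highest. The log2 fold change of Lsm8 was −0.29 in PS19 and −0.24 in P301S Tia1+/- (edgeR, adjusted p = 0.210 and 0.207), and that of Lsm1 was −0.24 in Tia1+/- and −0.25 in P301S Tia1+/- (0.216 and 0.209). Their ratio per kb, Lsm1 to Lsm8, was 1.34 ± 0.073 (SD, n = 3) in WT, 1.42 ± 0.17 in PS19, 1.30 ± 0.086 in Tia1+/- and 1.35 ± 0.18 in P301S Tia1+/-, with overlap of all groups. Lsm2, shared by both rings, had 6.24, 5.50 and 5.70 CPM in the WT libraries, 4.21, 5.20 and 4.34 in PS19, 3.38, 6.50 and 4.19 in Tia1+/- and 4.72, 4.74 and 4.04 in P301S Tia1+/-. The groups overlapped in Tia1+/- only, and no comparison with WT had an unadjusted p under 0.05.

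Lsm10 and Lsm11 belong to the U7 snRNP, which processes histone mRNAs. Lsm10 had 5.04, 4.82 and 4.87 CPM in the WT libraries, 5.92, 6.96 and 5.66 in PS19, 4.69, 7.03 and 5.99 in Tia1+/- and 5.47, 7.02 and 6.42 in P301S Tia1+/-. WT replicates were tight and low, and 8 of the other 9 libraries were higher, with log2 fold changes of 0.33, 0.27 and 0.36 in PS19, Tia1+/- and P301S Tia1+/- and no unadjusted p under 0.05. Lsm11 spread over 29.0 to 63.3 CPM in WT, 39.8 to 53.6 in PS19, 20.7 to 46.8 in Tia1+/- and 26.7 to 32.6 in P301S Tia1+/- libraries, with WT replicate 3 the highest and Tia1+/- replicate 3 the lowest of the 12. Lsm14a and Lsm14b, proteins of cytoplasmic mRNA granules, had different orders of groups. Lsm14b had 70.1, 71.2 and 70.0 CPM in the WT libraries, 65.1, 67.4 and 66.5 in PS19, 76.8, 70.9 and 85.7 in Tia1+/- and 66.3, 66.3 and 63.8 in P301S Tia1+/-. The PS19 and P301S Tia1+/- libraries lay below all WT and Tia1+/- libraries, and P301S Tia1+/- against Tia1+/- gave −0.25 (edgeR, adjusted p = 0.210). Lsm14a had 51.6 to 59.2 CPM in WT, 45.3 to 53.8 in PS19, 51.3 to 56.4 in Tia1+/- and 45.6 to 48.5 in P301S Tia1+/- libraries, and P301S Tia1+/- gave −0.23 against WT (adjusted p = 0.185).

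Of the minor U11/U12 proteins, which serve the rare U12-type introns, Snrnp48 had an unadjusted p under 0.05 against WT in all 3 groups and Snrnp25 and Snrnp35 in none. Snrnp48 had 20.3, 21.8 and 19.8 CPM in the WT libraries, 15.5, 15.3 and 15.7 in PS19, 13.3, 12.7 and 18.4 in Tia1+/- and 15.4, 12.7 and 15.0 in P301S Tia1+/-. Tia1+/- replicate 3 came closest to WT, and all 9 libraries lay below the lowest WT library. The log2 fold change was −0.41 in PS19, −0.48 in Tia1+/- and −0.52 in P301S Tia1+/- (edgeR, adjusted p = 0.213, 0.109 and 0.0859), and DESeq2 called the last 2 (adjusted p = 0.0462 and 0.0190). Snrnp35 had 9.05 to 9.77 CPM in WT, 8.19 to 8.78 in PS19, 7.22 to 9.66 in Tia1+/- and 7.74 to 8.46 in P301S Tia1+/- libraries, with log2 fold changes of −0.14, −0.15 and −0.22 in PS19, Tia1+/- and P301S Tia1+/-, and its PS19 and P301S Tia1+/- libraries lay below the lowest WT library. Snrnp25 had 7.20 to 10.6 CPM in WT, 8.31 to 9.87 in PS19, 9.79 to 10.97 in Tia1+/- and 9.81 to 10.9 in P301S Tia1+/- libraries. At the catalytic stage, Prpf18, which acts at the second step, had 93.6, 89.0 and 89.0 CPM in the WT libraries, 82.7, 77.5 and 82.6 in PS19, 77.4, 78.9 and 77.4 in Tia1+/- and 91.3, 81.4 and 77.0 in P301S Tia1+/-. It was below WT in all Tia1+/- and PS19 libraries, at −0.22 in Tia1+/- (edgeR, adjusted p = 0.156). Prpf19, the ubiquitin ligase of the Prp19 complex, had 142 to 198 CPM in WT, 191 to 207 in PS19, 167 to 206 in Tia1+/- and 163 to 184 in P301S Tia1+/- libraries, with WT replicate 1 the lowest of the 12.

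With the groups of the titles, the genes did not share a direction between the 2 P301S groups. P301S Tia1+/- against PS19 had 35 of the 58 genes higher and 23 lower (48.5% of all genes were lower), with a median log2 fold change of 0.039 and 0 called by edgeR (0.24% of all genes) and 1, Lsmem1, with 1 to 25 counts per library, by DESeq2 (5.53%). At an unadjusted p under 0.05, 6 were higher (11.7% of all genes) and 2 lower (7.62%). The 6 were Snrpb, Snrpd2, Lsm4, Sf3a1, Prpf4 and Lsmem1, and the 2 were Snrpd3 and Prpf39. The number higher fell to 1 without PS19 replicate 2 (7.42% of all genes), to 2 without PS19 replicate 1 (8.25%) and to 3 without PS19 replicate 3 (7.58%). It was 4 to 7 without any 1 other library (7.54% to 15.0%). The number lower was 1 to 5 (4.32% to 12.2%). P301S Tia1+/- against Tia1+/- had 31 higher and 27 lower (48.9% of all genes were lower), a median of 0.017, and 0 called by either tool (0% of all genes by edgeR and 2.62% by DESeq2), with 1 higher (8.92%) and 3 lower (6.66%) at an unadjusted p under 0.05.

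The interaction asks whether the 2 genotypes together differ from the sum of their separate effects. It was positive for 47 of the 58 genes, with a median of 0.19 on the log2 scale, meaning that P301S Tia1+/- lay above the sum of the separate differences. Over all genes 49.5% were negative and the median was 0.0049. Of the 58, 0 were called by edgeR (0.00648% of all genes) and 1, Prpf4, by DESeq2 (8.06%), while 15 were higher and 0 lower at an unadjusted p under 0.05, where 13.6% and 9.28% of all genes were. The 15 became 4 without PS19 replicate 2, 5 without Tia1+/- replicate 1, 6 without PS19 replicate 3 or Tia1+/- replicate 2, 8 or 9 without WT replicate 1, WT replicate 2, PS19 replicate 1, P301S Tia1+/- replicate 1 or P301S Tia1+/- replicate 2, and 11 to 14 without any 1 of the others. The olfactory bulb markers moved with this contrast, with 10 of 10 positive and a median of 9.61. With their level as a covariate the median of the 58 was 0.054. At an unadjusted p under 0.05, 4 were then higher (13.2% of all genes) and 4 lower (11.4%). The WT libraries of the comparisons above also enter the interaction, and its values rest on the groups of the titles.

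Low values were more frequent among the genes of lower GC content. The 29 genes with a transcript GC content up to 48.6% had medians of −0.22 in PS19, −0.21 in Tia1+/- and −0.23 in P301S Tia1+/- against WT, and 15, 12 and 14 of them were lower at an unadjusted p under 0.05, against 13.2%, 17.2% and 16.5% of all tested genes in that range. The other 29 had medians of −0.10, −0.067 and −0.041, with 2, 3 and 3 lower, against 7.36%, 5.89% and 4.47%. All tested genes split at the same value moved alike but less, with medians of −0.059, −0.086 and −0.074 below it and 0.030, 0.071 and 0.090 above. Spearman's rho between GC content and log2 fold change was 0.55, 0.60 and 0.42 over the 58 genes and 0.15, 0.26 and 0.28 over 15296 tested genes, as descriptions over genes that share libraries and normalization. With offsets for GC content and exonic length in the fit, the medians were −0.14, −0.13 and −0.11 and the number with an unadjusted p under 0.05 and lower was 15, 13 and 14, while 0 of the 58 were called in any comparison, Prpf39 and Prpf3 included. Prpf39 is among the genes of lowest GC content (37.0%), against 54.0% for Snrnp70 and 47.3% for Prpf3.

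**Figure D5:**
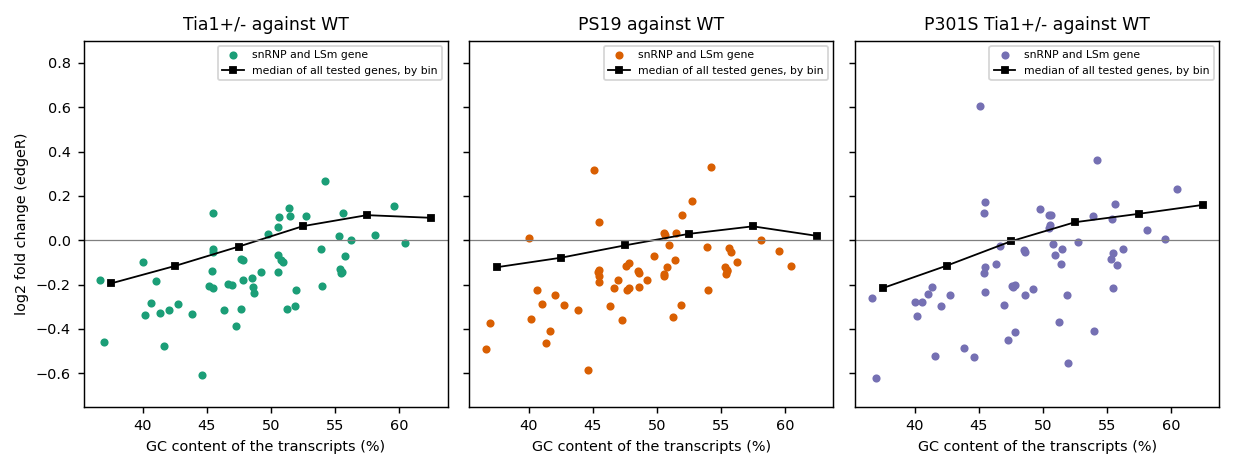
Log2 fold change against WT (vertical axis) over the GC content of the transcripts in percent (horizontal axis) for the snRNP and LSm protein genes (points, 1 gene not shown) in 3 panels, with the median of all tested genes in bins of GC content (black line). The line rises over most of the range, with a lower last bin in Tia1+/- and PS19, and most of the points lie below it.

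Partners of the snRNPs were examined in 6 lists with 73 genes in all, and 72 of them passed the filter on low counts. By edgeR 0 of the 72 were called in any comparison, where 0% to 1.31% of all genes were. At an unadjusted p under 0.05, 13, 16 and 14 were lower and 1, 3 and 4 higher in PS19, Tia1+/- and P301S Tia1+/- against WT. Over all genes the shares were 9.73%, 10.5% and 9.46% lower and 6.56%, 8.63% and 8.57% higher. Against WT in PS19, Tia1+/- and P301S Tia1+/-, the 6 genes of the exon junction complex, which splicing leaves on mRNA, had medians of −0.29, −0.22 and −0.20, with 4, 3 and 3 lower and 0 higher at an unadjusted p under 0.05. Magoh, a core subunit, gave −0.56, −0.57 and −0.50 (adjusted p = 0.159, 0.0765 and 0.0862), and Eif4a3, its RNA clamp, gave −0.29, −0.28 and −0.14. The 11 partners of U2 had medians of −0.088, −0.091 and −0.25, with 2, 3 and 5 lower. Dhx15, a helicase that takes spliceosomes apart, gave −0.42, −0.45 and −0.36, and Zrsr2, which reads the 3′ splice site of U12-type introns, gave −0.062, −0.13 and −0.33. The 20 genes of the Prp19 complex and the catalytic step had medians of −0.11, −0.10 and −0.13, with 4, 4 and 2 lower and 0 higher. Cdc5l, a core subunit, gave −0.18, −0.30 and −0.27, and Cwc15 gave −0.24, −0.19 and −0.22.

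The 18 genes that assemble snRNPs did not share a direction, with medians of −0.0039, 0.073 and −0.053 and 1, 3 and 3 higher beside 2, 4 and 2 lower at an unadjusted p under 0.05. Gemin8, of the SMN complex that loads the Sm ring, gave 0.59, 0.60 and 0.15, and Coil, the scaffold of Cajal bodies, gave 0.093, 0.25 and 0.31 (adjusted p = 0.671, 0.217 and 0.144). Of the 9 partners of U5 and the tri-snRNP, 0, 1 and 1 were lower at an unadjusted p under 0.05. Ppih, a U4/U6 partner, gave −0.41 in Tia1+/- (adjusted p = 0.0834) and Nhp2l1, which binds U4, gave −0.22 in P301S Tia1+/- (0.149). Of the 8 tested decay partners of the cytoplasmic LSm ring, 1 was lower in each comparison and 1 higher in P301S Tia1+/-. Dcp1a, of the decapping complex, gave −0.42, −0.34 and −0.27, and Edc4, an enhancer of decapping, gave −0.066, 0.087 and −0.22. The adjusted p values of this and the preceding paragraph are from edgeR. The shares over all genes given there apply to the counts of both paragraphs.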

How the data were processed

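Cortex RNA of 12 mice (3 per genotype, 1 library each) was prepared with a stranded total RNA kit. The paper gives Bowtie and TopHat for alignment to mm10 and featureCounts for counting, and the submitters' processing notes give TopHat2 2.0.6. The gene annotation, strand setting and treatment of reads with several alignments are not given in the sources used here, so reads of overlapping or near-identical genes may be split. The deposited file holds raw counts per gene symbol, whole numbers without normalization by the authors, in 12 columns matched to libraries by their titles.

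Counts were normalized with TMM and filtered with filterByExpr, and all 12 libraries were fitted with 1 mean per group by edgeR 4.0.16 (quasi-likelihood F test, R 4.3.3). p values were adjusted over all 15440 genes tested by the Benjamini-Hochberg method, at a threshold of 0.05. All 58 genes passed the filter. CPM are counts scaled to library size after TMM. A standard error combines the error of counting with the variation from mouse to mouse. Gene positions, exonic length and GC content are from GENCODE M21 (GRCm38, 23700 symbols found, 942 through an older or newer symbol). Promoters are from RefSeq on GRCm38.p6. The code was run on simulated counts with planted differences larger than the medians of the 58 genes. That run does not show how often differences as small as these medians are found. Alternatives were DESeq2 1.42.0 (size factors in edgeR, Wald test, and a likelihood ratio test among the 4 groups), no filter or at least 10 counts in every library, the replicate number as a block, offsets for GC content and exonic length (15296 genes with both), both of these, only the libraries compared, the olfactory bulb level as a covariate, and each library left out.

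The genes and lists were chosen with earlier results of these data known. Genes with values in every library are those the study names (Snrnp70, Snrpb, Snrpc, Snrpf, U2af1, Lsm2, Lsm10, Prpf3), the 2 of each class with the smallest p among the 4 groups, those with an adjusted p under 0.05, and related pairs. Of each partner list, the 2 genes with the smallest such p are given by fold change only. The values of 1 of the 58 genes are not reported here by name, while counts and medians include it. Prpf38b, the abundant genes, Prpf4, Lsm11, Sf3b1 and others given by range fall outside this rule.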

Additional observations from a re-analysis of the deposited data

How the results depend on the processing

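Against WT, the medians of the 58 genes stayed negative and Prpf39 stayed lower under all 21 alternatives, but calls of single genes depended on the setting. DESeq2 called 2 in PS19 (2.88% of all genes), 5 in Tia1+/- (6.33%) and 9 in P301S Tia1+/- against WT (6.44%), 1 in P301S Tia1+/- against PS19 (5.53%), 1 in the interaction (8.06%) and 8 among the 4 groups (12.1%). Without a filter on low counts, 0 were called in Tia1+/- against WT, 1 in P301S Tia1+/- against WT and 0 among the 4 groups. With offsets for GC content and exonic length, with or without the replicate block, these 3 numbers were 0, 0 and 0, and all 9 other libraries lay below WT in 7 genes. A fit of only the libraries compared called 0 in Tia1+/- and 0 in P301S Tia1+/- against WT and 7 in P301S Tia1+/- against PS19 (20.1% of all genes), with 9 lower at an unadjusted p under 0.05 in Tia1+/- against WT. With the replicate number as a block, 0 were called in Tia1+/- against WT, 0 in P301S Tia1+/- against WT and 0 among the 4 groups. The titles do not say what the numbers stand for. Of 18 same-numbered pairs, 7 had residuals correlated above 0.1 (range −0.538 to 0.346). Pairs of different number ranged from −0.488 (WT replicate 1 with Tia1+/- replicate 2) to 0.611 (WT replicate 1 with Tia1+/- replicate 3).

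The olfactory bulb covariate, an alternative chosen after seeing the data, gave 10 called in P301S Tia1+/- against WT (10.1% of all genes), 1 against PS19 (6.78%) and 2 against Tia1+/- (8.12%), 1 in Tia1+/- against WT (Lsm11, 8.61%), 1 in the interaction (8.35%) and 9 among the 4 groups (13.2%). Lower at an unadjusted p under 0.05 were then 5 in PS19 (11.5%) and 9 in Tia1+/- (13.6%) against WT. The medians were −0.11 in Tia1+/- against WT, −0.030 in P301S Tia1+/- against PS19, −0.041 against Tia1+/- and 0.054 in the interaction. Among the values that changed sign were Snrpd3 (0.029), Lsm4 (−0.063), Sf3a1 (−0.039) and Lsm11 (0.89) in P301S Tia1+/- against PS19, Lsm11 against Tia1+/- (1.08) and the interaction of U2af1 (−0.096). Without 1 library at a time, the number called was 0 to 2 in Tia1+/- against WT, 0 to 6 in P301S Tia1+/- against WT, 0 to 2 in P301S Tia1+/- against PS19, 0 to 1 in the interaction and 0 to 1 among the 4 groups. The number lower at an unadjusted p under 0.05 was 10 to 19 in PS19, 10 to 16 in Tia1+/- and 12 to 19 in P301S Tia1+/-. Over all genes the shares in the same order were 5.30% to 12.6%, 7.33% to 13.0% and 6.31% to 13.8%. The medians were −0.18 to −0.12, −0.17 to −0.095 and −0.16 to −0.098 against WT in the same order, 0.0045 to 0.049 in P301S Tia1+/- against PS19, −0.024 to 0.032 against Tia1+/- and 0.13 to 0.21 in the interaction. Without WT replicate 1, calls in P301S Tia1+/- against WT rose to 6, where 10.5% of all genes were called. The causes were not tested. Each group had 3 mice, and the libraries had 11978962 to 19146484 counts. How often differences of the size of these medians are called for a single gene in such data was not tested.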

Other observations

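Symbols of small nuclear RNA genes were sought by the prefix Rnu, which gave 5: Rnu6, Rnu7, Rnu11, Rnu12 and Rnu73b. None of them is named for the U1, U2, U4 or U5 RNA, and Rnu73b had 0 to 5 counts per library. Rnu6 and Rnu7 had 0 counts in all 12 libraries, where up to 3 counts in a library are compatible with a count of 0. Rnu12, the U12 RNA of the minor spliceosome, had 33 to 118 counts in WT, 45 to 168 in PS19, 91 to 187 in Tia1+/- and 76 to 119 in P301S Tia1+/- libraries. Rnu11, the U11 RNA, had 46 to 58 counts in WT, 30 to 83 in PS19, 34 to 69 in Tia1+/- and 44 to 61 in P301S Tia1+/- libraries. In counts each group overlapped WT for both RNAs. In CPM Rnu11 had 3.89 to 4.64 in WT and 2.64 to 3.84 in P301S Tia1+/- libraries, without overlap, and edgeR called neither in any comparison with WT.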
